A study of Mus musculus with 6 samples.

Results

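Fam107a and Fam107b are the genes of a small family of actin-binding proteins in the mouse, and their signal was read in astrocytes of the cerebellum and of the neocortex. All probe sets whose gene symbol in the platform annotation is Fam107a or Fam107b were taken, which gave 3 for each gene and 6 of the 45101 on the array, for 2 of the 18193 genes with a probe set of their own. All 6 probe sets passed the filter on dim signal. The pair was chosen by the log2 difference of Fam107a between the regions on these same arrays, so the values of both genes are given as a description, with no test.

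A total of 6 single-colour arrays were hybridised, 3 with RNA of cerebellar astrocytes and 3 with RNA of neocortical astrocytes. Per the labels, biotinylated amplified RNA was made from total RNA of mouse cells. The neocortical arrays are labelled with the ICR strain and the cerebellar arrays carry no strain label, so region and strain cannot be told apart if the strains differed. The labels name no age, culture condition or treatment, and do not say whether the samples of a region came from separate animals. The spread behind the p-values given for other genes may therefore be technical. In bulk RNA, fewer cells of a type and less RNA per cell cannot be told apart.

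Fam107a, also called DRR1 or TU3A, encodes a small protein that binds and bundles actin filaments and is strongly expressed in brain. In rodents its transcript is induced by stress and by glucocorticoid hormones, which act through the glucocorticoid receptor, a nuclear receptor that binds DNA. In the human developing cortex it marks outer radial glia, the progenitors that lie outside the ventricular zone, and it is also found in astrocytes. Fam107b is its paralogue, and in human cells its product was described as a small protein induced by heat shock.

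The promoters of both genes are shown because the glucocorticoid and heat shock roles above concern transcription. RefSeq (GRCm38.p6) lists 2 separate start regions of Fam107a, on the minus strand of chromosome 14, and 1 of Fam107b, on the plus strand of chromosome 2. Each sequence runs from 250 bases before to 50 bases after the start, 5′ to 3′ along the gene, and capitals mark matches to the motifs named below. The first is the downstream start of Fam107a at chr14:8309730-8310029 and the second the start of Fam107b at chr2:3713208-3713507.
Fam107a: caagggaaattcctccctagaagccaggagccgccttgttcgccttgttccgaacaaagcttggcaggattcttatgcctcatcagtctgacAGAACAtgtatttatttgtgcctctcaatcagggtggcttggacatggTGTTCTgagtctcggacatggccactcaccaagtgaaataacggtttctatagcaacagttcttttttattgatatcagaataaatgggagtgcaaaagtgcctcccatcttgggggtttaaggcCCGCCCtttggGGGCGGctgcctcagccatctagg
Fam107b: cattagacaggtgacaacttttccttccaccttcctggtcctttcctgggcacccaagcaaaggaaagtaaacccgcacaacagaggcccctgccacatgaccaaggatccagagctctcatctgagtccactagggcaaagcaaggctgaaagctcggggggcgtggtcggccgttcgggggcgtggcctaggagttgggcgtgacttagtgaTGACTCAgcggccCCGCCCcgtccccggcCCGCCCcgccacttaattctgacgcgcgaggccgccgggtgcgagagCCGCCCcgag

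Both strands were searched for 6 motifs. AGAACA, the hexamer that the glucocorticoid receptor binds, matched 2 times in the downstream Fam107a promoter, 158 bases before the start on the gene's strand and 110 bases before it on the other strand. The hexamer occurs in 19.0% of the 32851 promoter windows of RefSeq, so a match is common. The full palindrome, AGAACA followed by any 3 bases and TGTTCT, which holds the hexamer on both strands, was not in the Fam107a or Fam107b windows and is in 3 of all windows. GGGCGG, the GC box, matched 2 times in the downstream Fam107a window and 3 times in the Fam107b window, against 35.7% of all windows with a match. TGANTCA, the AP-1 motif, matched 1 time in the Fam107b window, 36 bases before the start, and is in 7.81% of all windows. The heat shock motif GAANNTTC and the cyclic AMP response element TGACGTCA had no match in these windows, and are in 7.86% and 1.79% of all windows. The upstream Fam107a window, at chr14:8317558-8317857, held none of the 6 motifs. These matches are letters in a window, not measured sites.

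Fam107a was far dimmer in cerebellar than in neocortical astrocytes on every probe set. Values are quantile-normalized signal in arbitrary units, and differences are cerebellar minus neocortical on the log2 scale, so a negative one means lower in cerebellar astrocytes. The brightest probe set, 1434202_a_at, had 830.7, 973.8 and 777 on cerebellar arrays 1 to 3, against 9873, 20727 and 13063 on neocortical arrays 1 to 3. Every cerebellar array lay below every neocortical one, and the lowest neocortical array was 10.1 times the highest cerebellar array. Cerebellar arrays averaged 861 ± 102 and neocortical arrays 14555 ± 5579 (SD, n = 3 each). The log2 difference was -4.02 ± 0.24 (SE), which is 16.2-fold lower in cerebellar astrocytes. The suffix _a_at marks a probe set shared by several transcripts of 1 gene.

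The other probe sets of Fam107a showed the same order of groups at dimmer levels. Probe set 1434203_at, annotated with the same EST as the first, had 576, 703 and 313 on cerebellar arrays, against 3436, 6846 and 5472 on neocortical arrays, a log2 difference of -3.33 ± 0.33 (SE). Probe set 1435918_at, annotated with another EST, had 79.1, 19.15 and 67.1 on cerebellar arrays, against 375, 617 and 694 on neocortical arrays. Its 3 cerebellar values lay within the range of the bacterial control probe sets on these arrays, which reached 269.2, and 1 was below the floor of 62.2 that was set before logs were taken. Its fitted log2 difference of -2.98 ± 0.38 (SE) therefore depends on the floor, and was -1.53 when the floor was raised to the 40th percentile and -3.54 when it was lowered to 1.

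Signal of the bright Fam107a probe sets in cerebellar astrocytes was low but above the bacterial control range. The 6 cerebellar values of 1434202_a_at and 1434203_at ran from 313 to 973.8, all above the highest bacterial control value, 269.2. The lowest, 313 for 1434203_at on cerebellar array 3, was not far above it. Neocortical signal was among the brightest of the array, and the mean of 1434202_a_at over all 6 arrays exceeded that of 93.5% of probe sets.

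**Figure D1:**
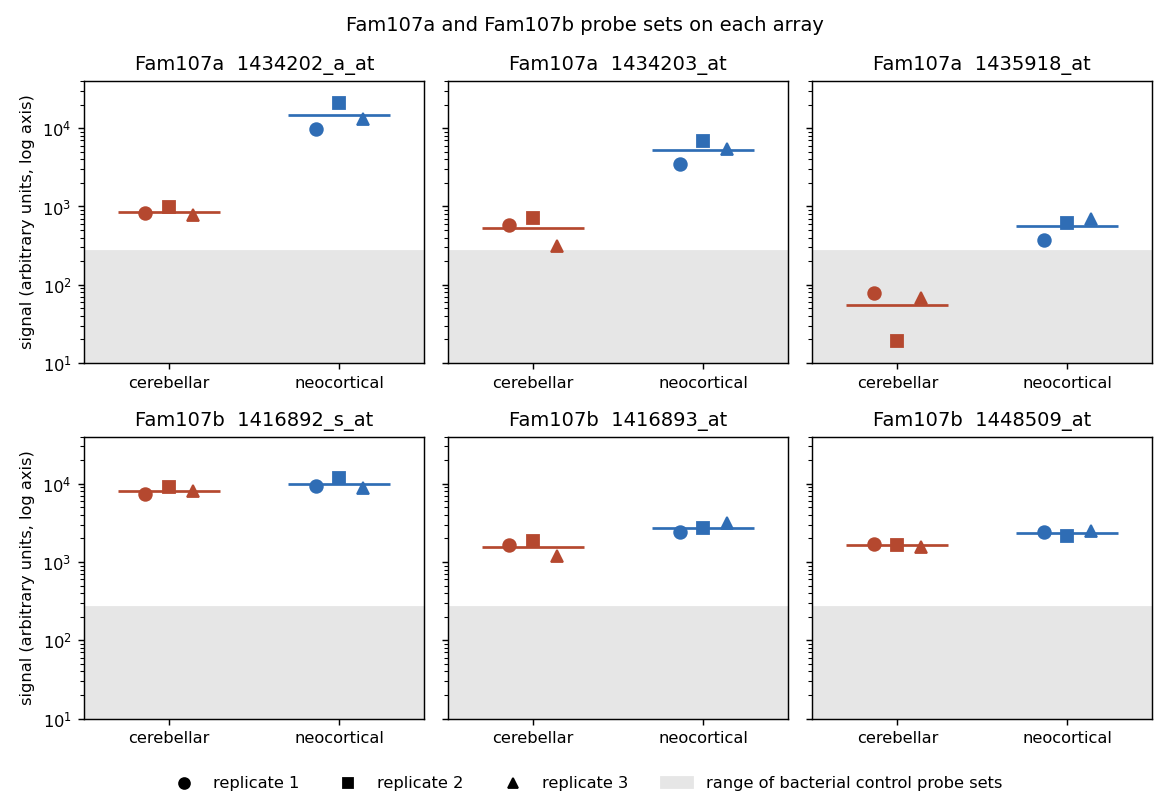
Quantile-normalized signal (arbitrary units, log axis) of the 6 probe sets of Fam107a (top) and Fam107b (bottom) on each array, with cerebellar arrays in red on the left and neocortical arrays in blue on the right. Symbols are replicates, lines are group means, and the grey band is the range of the bacterial control probe sets; the Fam107a groups lie far apart, while those of 1416892_s_at overlap.

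Fam107b was bright in astrocytes of both regions and differed far less. Its brightest probe set, 1416892_s_at, had 7326, 8996 and 7981 on cerebellar arrays, against 9253, 11676 and 8856.5 on neocortical arrays. The groups overlapped, since cerebellar replicate 2 was above neocortical replicate 3. The log2 difference was -0.29 ± 0.13 (SE), and cerebellar arrays averaged 8101 ± 841 against 9928 ± 1526 on neocortical arrays (SD, n = 3 each). It was -0.17 without neocortical replicate 2, the brightest array, and -0.51 when arrays were scaled to the same median. The suffix _s_at marks a probe set that can pick up transcripts of more than 1 gene.

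The dimmer probe sets of Fam107b did not overlap between the regions. Probe set 1416893_at had 1667, 1858 and 1187 on cerebellar arrays, against 2387, 2721 and 3111 on neocortical arrays, a log2 difference of -0.82 ± 0.19 (SE). Probe set 1448509_at had 1692, 1636 and 1573 on cerebellar arrays, against 2407, 2166 and 2459.6 on neocortical arrays, a log2 difference of -0.52 ± 0.12 (SE). Cerebellar replicate 3 was the lowest of the 6 arrays on both. The annotation gives all 3 Fam107b probe sets the same cDNA, so they are repeated readings of 1 transcript model and not independent samples.

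Across both genes, all 6 probe sets were lower in cerebellar astrocytes and 5 had groups that did not overlap. Of all 27022 probe sets tested, 15.8% were lower with no overlap. Since the contrast chose Fam107a, nothing is read from this count. The folds were 16.2 and 10.1 for the Fam107a probe sets above the bacterial control range in both regions, and 1.22, 1.76 and 1.43 for those of Fam107b. No single fold is given for 1435918_at, since it depends on the floor. Levels of the genes were not set against each other, because probe sets differ in brightness for reasons other than transcript level.

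**Figure D2:**
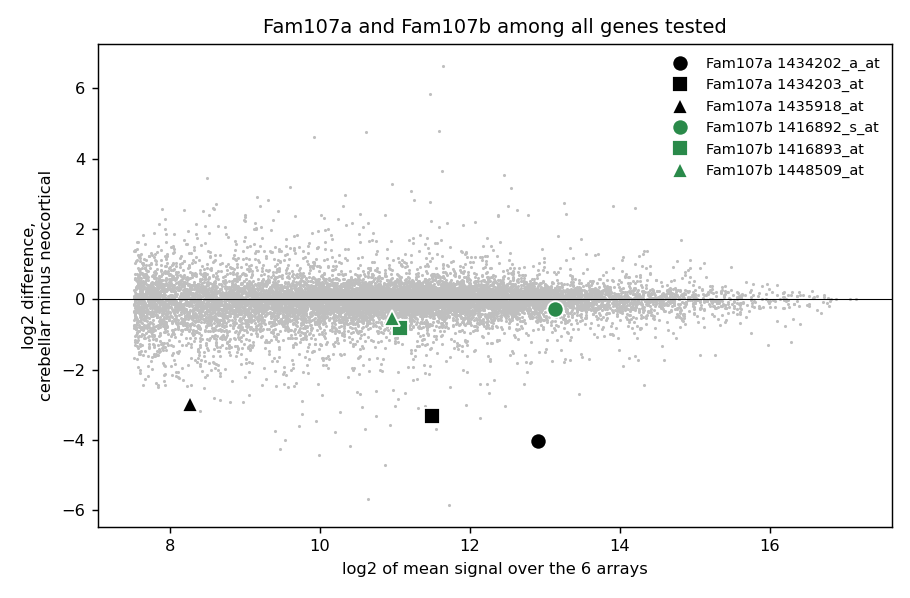
Log2 difference (cerebellar minus neocortical) against log2 mean signal over the 6 arrays for the 12637 genes tested (grey, brightest probe set each), with the 3 probe sets of Fam107a in black and of Fam107b in green. The Fam107a probe sets lie at -4.02, -3.33 and -2.98, below most genes of like brightness. The Fam107b probe sets, at -0.29, -0.82 and -0.52, lie nearer the bulk than those of Fam107a.

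In the order of differences over the 12637 genes tested, given as a description because this difference chose the pair, Fam107a was 7th from the lowest and Fam107b 2884th. The 6 genes ahead of Fam107a had cerebellar means within the bacterial control range, so their order and their lead rest on dim signal. Of these, Nr2e1, Emx2, Fezf2 and Col4a4 had cerebellar arrays at the floor, so their differences also depend on it. Lhx2 and Dmrta2 had no array at the floor. The genes next to Fam107a were Col4a4, a basement membrane collagen gene, at -4.18 ± 0.43, and the transcript 3110039M20Rik at -4.00 ± 0.41 (log2 difference, SE). These neighbours do not differ from Fam107a by more than their standard errors. Of the 20 genes with the lowest differences, 14 had a cerebellar mean within the bacterial control range, and Fam107a was 1 of the 6 that lay above it.

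Fam107a also varied more than most genes among neocortical arrays. Its log2 SD over the 3 neocortical arrays was 0.54, larger than that of 93.5% of the genes tested, whose median was 0.15. Neocortical replicate 2 was 2.10 times neocortical replicate 1. On all 3 probe sets of Fam107a neocortical replicate 1 was the lowest of its group, while the highest was replicate 2 on 2 of them and replicate 3 on 1435918_at. Among cerebellar arrays the log2 SD was 0.17, against a median of 0.20 over all genes. Without neocortical replicate 1, 2 or 3 the log2 difference was -4.24, -3.70 and -4.06. Fam107b had log2 SDs of 0.15 in cerebellar and 0.21 in neocortical astrocytes.

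The brightest probe sets of the genes moved together over the 6 arrays with a Pearson correlation of 0.775, and their deviations from the group means correlated at 0.803. The readings share the arrays, and other pairs of a Fam107a with a Fam107b probe set gave deviations that correlated from -0.675 (1434202_a_at with 1448509_at) to 0.876 (1434203_at with 1416893_at). Deviations of the first 2 Fam107a probe sets correlated at 0.774, and those of each with 1435918_at at 0.539 and 0.516. Within Fam107b, 1416893_at correlated at 0.0985 with 1416892_s_at and at 0.383 with 1448509_at. The pair of 1416892_s_at and 1448509_at correlated at -0.824. With 6 arrays these correlations are a description.

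The genes whose log2 signal was most like Fam107a over the 6 arrays, by Pearson correlation with 1434202_a_at among 12636 other genes, were Smad1 (0.998), Rcn2, Crot, Plscr2, Pdk4, Cldn10, Gna14 and Cstf2 (0.995). Smad1 encodes a mediator of BMP signalling, Cldn10 a claudin of tight junctions, and Gna14 a G protein alpha subunit. A correlation over 0.9 was shared by 891 genes, and the points share the step between regions. Cldn10 had the largest difference of the 8, with 129, 200 and 150 on cerebellar arrays, against 1055, 2287 and 1414 on neocortical arrays. Like Fam107a, all of the 8 but Plscr2 had neocortical replicate 2 highest and replicate 1 lowest. They were chosen by likeness, so this order is no separate result. The cerebellar signal of Cldn10 lay within the bacterial control range, though above the 95th percentile of the controls, 116.2. No array was at the floor. Its fitted 9.60-fold difference therefore rests on dim signal. These genes were chosen by a likeness that includes the step between regions, so no p is given for their differences here; Pdk4 is also in a list described below. The other 7 differed by 1.42-fold to 4.37-fold, and another probe set of Rcn2 read in the opposite direction, at 0.53.

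Once group means were taken out, the genes most like Fam107a were Itgb4 (0.997), Agmo, Fam172a, Hdhd3 and Cys1 (0.988). A correlation over 0.9 was shared by 210 genes. With 6 arrays and the group means removed, these likenesses are a description. Itgb4, an integrin subunit gene, was higher in cerebellar astrocytes, at 842, 910 and 827, against 316, 469 and 373 on neocortical arrays (limma adjusted p = 0.00975). Agmo and Cys1 had small log2 differences of 0.12 and 0.27 that did not pass. The genes most like Fam107b, by 1416892_s_at, were Wdyhv1 (0.993), Manba, Tmem29, Cep126 and Zmat2 (0.989), with log2 differences from -0.45 to -0.15. For Fam107b a correlation over 0.9 was shared by 236 genes, so this likeness is a description too.

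**Figure D3:**
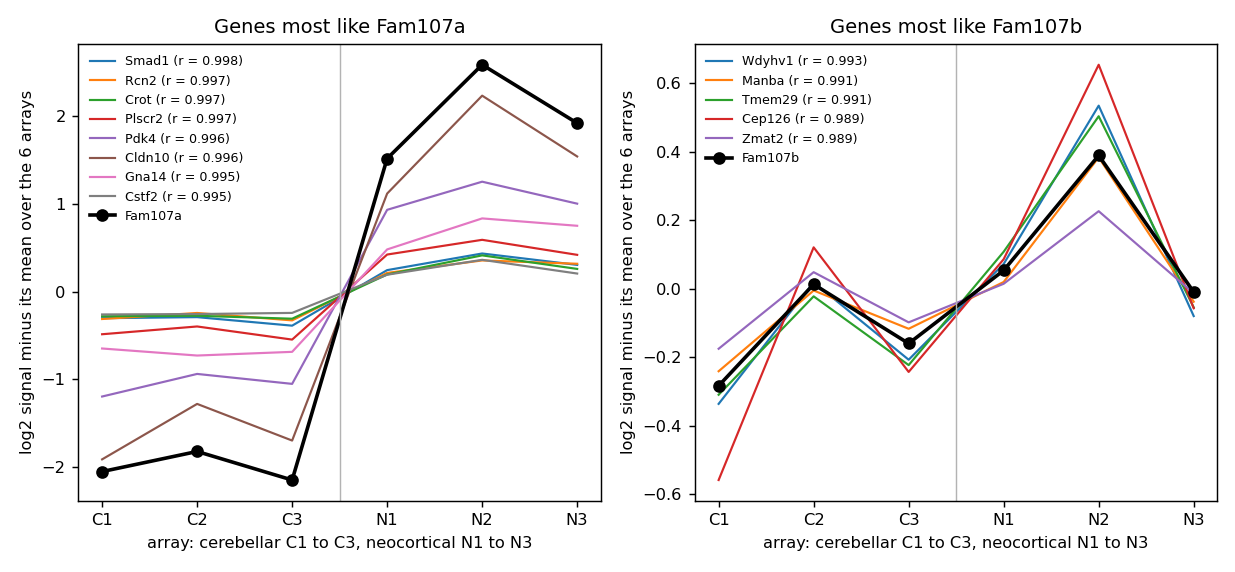
Log2 signal minus its mean over the 6 arrays for Fam107a (left, black) with its 8 most like genes, and for Fam107b (right, black) with its 5 most like genes, on cerebellar arrays C1 to C3 and neocortical arrays N1 to N3. Fam107a and its like genes are lower on C than on N arrays, by widely different amounts, while Fam107b and its like genes are highest on N2.

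Genes beside Fam107a on chromosome 14 were also read. In the gene table the 3 nearest genes on the array on 1 side were Acox2, Kctd6 and Pdhb, and on the other side Oit1, Cfap20dc and Fhit. Acox2, a peroxisomal acyl-CoA oxidase gene, was lower in cerebellar astrocytes (247 ± 74.6 against 702 ± 273, SD, n = 3 each, limma adjusted p = 0.0295), with a cerebellar mean within the bacterial control range. Its call was lost under 6 of 14 alternatives (adjusted p up to 0.144), among them without cerebellar replicate 1 (0.0527) or 3 (0.0543) and without neocortical replicate 2 (0.119) or 3 (0.0915). Kctd6, a potassium channel tetramerisation domain gene, was lower with a log2 difference of -0.63 (1845 ± 160 against 2847 ± 151, SD, n = 3 each, limma adjusted p = 0.0136), and its adjusted p was 0.0542, 0.0628 and 0.0579 without neocortical replicate 1, 2 or 3. Cfap20dc had a log2 difference of -1.36 and did not pass (limma adjusted p = 0.0561). Its cerebellar mean of 199.9 lay within the bacterial control range. It passed under 5 of 14 alternatives, which were arrays paired by replicate number (adjusted p = 0.0328), scaling to the same median (0.0424), the floor at the 40th percentile (0.0279), suffix probe sets left out (0.0491) and without cerebellar replicate 3 (0.0285). Pdhb and Fhit had differences of -0.03 and -0.11, and Oit1 was too dim to test.

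Beside Fam107b on chromosome 2, Hspa14, Suv39h2, Meig1, Frmd4a and Prpf18 were tested and none passed, with log2 differences from -0.66 for Meig1 to 0.40 for Suv39h2 (limma adjusted p from 0.117 to 0.959). The sixth neighbour, 1700080N15Rik, was too dim to test.

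Of the pathways in which these genes are known, the glucocorticoid receptors and cofactors held 1 gene that passed the test, Ncoa1. Of 12637 genes tested, 5.4% were higher and 7.47% lower in cerebellar astrocytes, and over probe sets 10.7% were called in either direction (limma adjusted p under 0.05). Of 10 listed receptor and cofactor genes, 7 were on the array by a probe set of 1 gene and 6 were tested, of which 1, or 16.7%, was lower and none higher. Nr3c1, the glucocorticoid receptor gene, had 5446, 5861 and 7304 on cerebellar arrays, against 6408, 5362 and 7221 on neocortical arrays. The groups overlapped, and the log2 difference was -0.03 ± 0.15 (SE, limma adjusted p = 0.926). This is the brightest of 6 probe sets of Nr3c1. Over 16 alternatives the difference ran from -0.41 to 0.07 and passed in none (limma adjusted p from 0.0676 to 0.989). Ncoa1, a nuclear receptor coactivator gene, was lower with a log2 difference of -0.58 (limma adjusted p = 0.0151), and the call was lost without neocortical replicate 1 (adjusted p = 0.0726) or 2 (0.068). Ncoa2 had a difference of 0.18 (adjusted p = 0.418). The list's median was 0.07, against -0.02 over all genes, and ran from -0.12 when arrays were scaled to the same median to 0.29 with the mean of probe sets.

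Of 22 listed genes that glucocorticoids induce, 21 were tested, of which 1 was higher, 3 were lower and 17 did not pass. These are 4.76% higher and 14.3% lower, against 5.4% and 7.47% over all genes. The median log2 difference was -0.05, and ran from -0.14 with arrays scaled to the same median to 0.13 with the mean of probe sets. Pdk4, a kinase that inhibits pyruvate dehydrogenase, had 500, 597 and 552 on cerebellar arrays, against 2187, 2731 and 2296 on neocortical arrays. The groups lay far apart in the direction of Fam107a (log2 difference -2.13 ± 0.16 SE, limma adjusted p = 0.000132), and Pdk4 was also among the 8 genes most like Fam107a. Tsc22d3, the leucine zipper gene also called Gilz, was 2.28-fold lower (1105 ± 116 against 2510 ± 17.5, SD, n = 3 each, limma adjusted p = 0.000924), with 2 of 3 probe sets past the threshold and an adjusted p of 0.568 without suffix probe sets. Bcl6, a transcriptional repressor gene, was 1.42-fold lower (limma adjusted p = 0.0461), and it did not pass with arrays paired by number (0.0663) or without any 1 array (adjusted p up to 0.149). Errfi1, a feedback inhibitor of the EGF receptor, was the higher one, with 7882, 6615 and 7629 on cerebellar arrays, against 2417, 2508 and 2776 on neocortical arrays (limma adjusted p = 0.000134).

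Actin filament genes encode proteins that act on the filaments that Fam107a binds. Of 51 listed, 48 were on the array and all of these were tested, of which 3 were higher, 6 lower and 39 did not pass. The shares of 6.25% higher and 12.5% lower compare with 5.4% and 7.47% over all genes. Tmsb4x had the same value on every array after quantile normalization, so it could not pass. The median log2 difference was -0.02, as over all genes, and ran from -0.17 with arrays scaled to the same median to 0.02 without suffix probe sets. The largest were Evl, a regulator of filament ends, 1.72-fold lower (limma adjusted p = 0.00906), Flnc, a filamin gene, 1.80-fold higher (0.0097), Myl9, a myosin light chain gene, 1.56-fold lower (0.042) and Actn1, an actinin gene, 1.44-fold lower (0.0265). The groups of Myl9 overlapped, and another probe set of Evl gave a log2 difference of 0.062. Flnc did not pass without neocortical replicate 3 (adjusted p = 0.0503), and neither Myl9 nor Actn1 passed without cerebellar replicate 2 or 3 or neocortical replicate 1 or 3 (adjusted p up to 0.151). The 9 calls became 5 without cerebellar replicate 2, 3 without cerebellar replicate 3 and 2, 6 and 3 without neocortical replicates 1, 2 and 3. Scaling to the same median gave 1 higher and 5 lower, and the mean of probe sets 3 higher and 0 lower.

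Radial glia genes include markers of the progenitors in which human FAM107A is known. Of 27 listed and tested, 4 were higher and 6 lower in cerebellar astrocytes, and 17 did not pass. These are 14.8% higher and 22.2% lower, against 5.4% and 7.47% over all genes. Vim had the same value on every array after quantile normalization, so it could not pass. Ptprz1, a receptor phosphatase gene of radial glia, had 6607, 12386 and 9329 on cerebellar arrays, against 24567, 33175 and 26454 on neocortical arrays. It was 3.05-fold lower with no overlap (limma adjusted p = 0.0019), on 3 of 3 probe sets. Acsbg1, an acyl-CoA synthetase gene, was 2.30-fold lower (limma adjusted p = 0.00458). Tnc, the matrix gene tenascin C, was 2.00-fold higher (24941 ± 7121 against 12564 ± 3770, SD, n = 3 each, limma adjusted p = 0.0363), and Anxa1, the annexin A1 gene, 2.12-fold higher (0.0497). The Tnc call was lost without any 1 array other than cerebellar replicate 3 (adjusted p up to 0.0878), and that of Anxa1 without cerebellar replicate 3 (0.0937) or neocortical replicate 1 (0.147) or 2 (0.169). The other members past the threshold are named after their values were seen. Fabp7, the fatty acid binding protein gene of radial glia, and Itgb5, an integrin gene, were lower with log2 differences of -0.61 and -0.93. Their limma adjusted p-values were 0.0026 and 0.000932. Mt3 and Slc1a3 were lower at -0.97 and -0.80 (0.00131 and 0.00585), Slc1a3 on 1 of 6 probe sets. Ptn and Lifr were higher at 0.89 and 0.79 (0.00479 and 0.0132). The Lifr call was lost without neocortical replicate 1 or 3 (adjusted p up to 0.0593). The list's median was -0.17, and it was -0.04 for the values as deposited and 0 without cerebellar replicate 2. The list shares Slc1a3 and Sox9 with the astrocyte markers given below.

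Heat shock genes are the group in which human FAM107B was described. Of 17 listed, 16 were tested, of which 1 was higher, 2 lower and 13 did not pass. These are 6.25% and 12.5%, against 5.4% higher and 7.47% lower over all genes. The median log2 difference was -0.12, and it was -0.035 without cerebellar replicate 2, 0.032 without suffix probe sets and -0.24 with arrays scaled to the same median. Hspa4l, a chaperone of the Hsp110 family, was 2.03-fold lower (4669 ± 866 against 9399 ± 775, SD, n = 3 each, limma adjusted p = 0.00232) on 5 of 5 probe sets. Hsp90aa1, the inducible Hsp90 gene, was 1.34-fold lower (0.0324), with 1 of 3 probe sets past the threshold, and Dnajb1, a J-domain cochaperone, was 1.33-fold higher (0.0324). Hsp90aa1 did not pass without any 1 array (adjusted p up to 0.17), and Dnajb1 did not pass without any 1 array other than cerebellar replicate 2 (up to 0.133) or with arrays scaled to the same median (0.425). The 3 calls became 5 with arrays paired by number, 1 without cerebellar replicate 3 and 1 without neocortical replicate 1, 2 or 3.

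**Figure D4:**
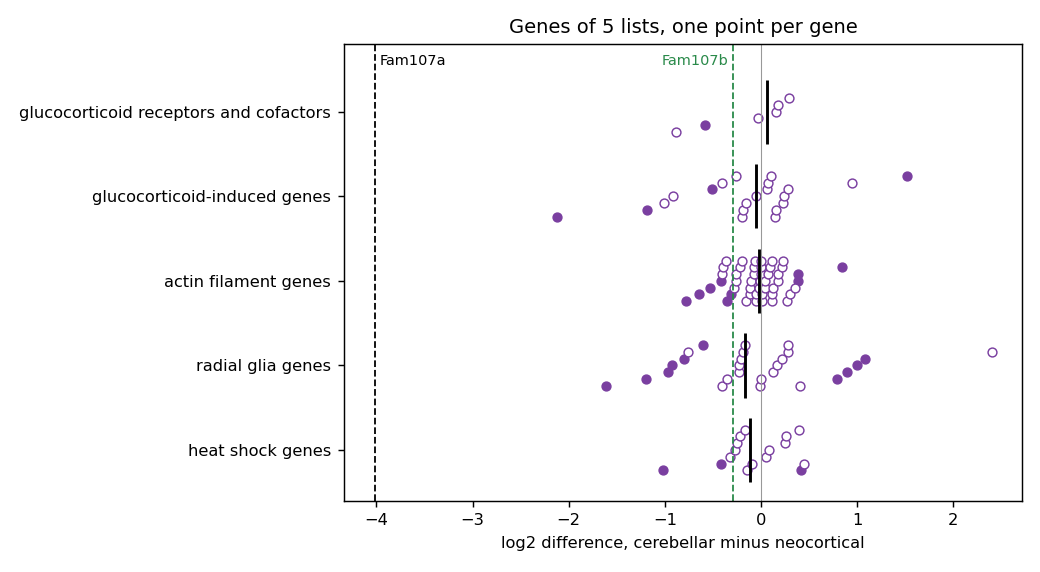
Log2 difference (cerebellar minus neocortical) of each tested gene of 5 lists, with filled points for genes past the limma threshold, open points for the others and black bars for the list medians. Dashed lines mark Fam107a, which was chosen by this difference, at -4.02, lower than every gene of the lists, and Fam107b at -0.29.

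Most markers of the labelled cell type were bright in both regions. Gjb6 lay within the bacterial control range on cerebellar arrays 1 and 2 (119.9 and 203) and neocortical array 1 (12). The summed signal of 12 astrocyte markers ran from 163596 to 233727 on cerebellar and from 225819 to 273016 on neocortical arrays. Slc1a3, Glul, Aldoc and Fgfr3 were lower and Aqp4 higher in cerebellar astrocytes, and Slc1a3 was called on 1 of its 6 probe sets. Of 9 oligodendrocyte lineage markers on the array, Olig1 and Olig2 were lower, with log2 differences of -1.74 and -2.58 (limma adjusted p = 0.00129 and 0.000501), and Mbp was higher, and their summed signal ran from 54257 to 83621 on cerebellar and from 74033 to 85899 on neocortical arrays. Mag and Mog lay within the bacterial control range on every array.

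Markers of other cells were also read. The sums of 12 neuron markers were 15619 to 25054 on cerebellar and 22622 to 24240 on neocortical arrays, and 5 of the 12, Snap25 among them, lay within the control range. The sums of 7 choroid plexus and ependymal markers were 7505 to 12552 on cerebellar and 13788 to 16750 on neocortical arrays, and those of 7 pericyte and smooth muscle markers were 125842 to 155842 on cerebellar and 165841 to 191458 on neocortical arrays. The choroid plexus and pericyte sums did not overlap between the regions, with Folr1, Otx2 and Acta2 called lower in cerebellar astrocytes. Foxj1 carried most of the choroid plexus sum (means 7496 and 8644) and did not pass, nor did Ttr, Clic6 or Tmem212. Kl lay within the control range on every array. Acta2 and Tagln carried most of the pericyte sum, and Tagln is also in the actin list. Pdgfrb (means 7830 and 6596) and Rgs5 (281 and 262) were slightly higher in cerebellar astrocytes and did not pass. Myh11, Kcnj8 and Abcc9 lay within the control range on every array. The neuron sums overlapped, with Syt1 and Gad1 called lower. In every other list the sums overlapped. Those of 9 microglia and macrophage markers ran from 6411 to 36107 on cerebellar and from 11242 to 31440 on neocortical arrays, those of 9 meningeal fibroblast markers from 57379 to 228386 and from 86019 to 133230, those of 7 endothelial markers from 1480 to 3056 and from 2337 to 3212, and those of 6 cerebellar granule neuron markers from 4468 to 5993 and from 5370 to 5621. Of those 6, Atoh1, Neurod1, Cntn2 and Gabra6 lay within the control range on every array, and Pax6, a gene also of radial glia, carried most of the sum (means 4342 and 4925). Calls among these 4 lists were Kdr and Ogn, lower in cerebellar astrocytes, and Twist1, higher. Gapdh control probe sets at the 3′ end over those at the 5′ end, a measure of RNA quality, gave 0.913, 1.00 and 1.07 on cerebellar and 0.872, 0.865 and 0.883 on neocortical arrays. The part of these markers and of RNA quality in the Fam107a and Fam107b differences was not tested.

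**Figure D5:**
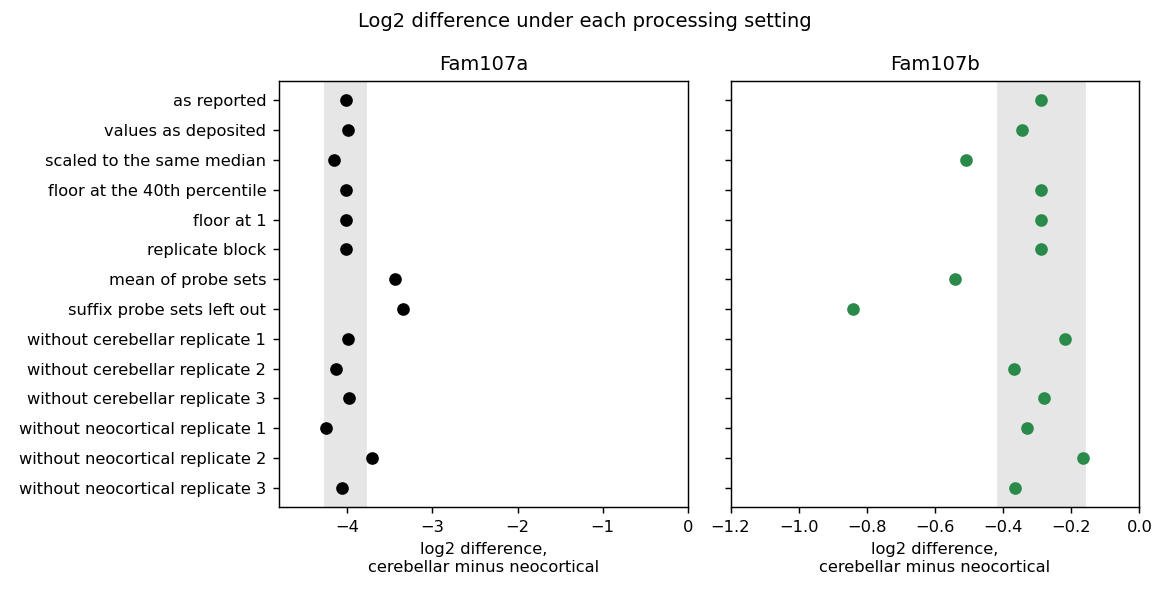
Log2 difference (cerebellar minus neocortical) of Fam107a (left) and Fam107b (right) as reported and under 13 other settings, with a grey band of 1 SE around the reported value. Fam107a stays between -4.24 and -3.35, and Fam107b between -0.84 and -0.17, where the lowest value comes from leaving out probe sets with a suffix.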

How the data were processed

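The authors deposited 1 linear intensity per probe set and array, with identifiers of an Affymetrix mouse array. How probes were summarised, and with which software, is not given in the sources used here. On every array the 2% trimmed mean of the deposited intensities was 1500, and medians ran from 284.7 to 361.2. The bacterial control range was taken from the deposited intensities of 24 control probe sets. It ran from 2.9 to 269.2, with a 95th percentile of 116.2, and was set against quantile-normalized signal. After the controls were left out, 45037 probe sets were brought to the same quantiles, floored at 62.2 (the 20th percentile of all values) and log2 transformed. Probe sets with a mean from the 40th percentile up, 27022 in all, entered a two-sided limma test (version 3.58.1, R 4.3.3; lmFit, eBayes with a variance trend), with Benjamini-Hochberg adjustment over all of them and a threshold of 0.05. The fit was also run on simulated data with independent noise on each array, and no result here rests on that run.

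Symbols came from the platform annotation, updated through Entrez IDs to the GRCm38.p6 gene table, and 34945 probe sets had 1 symbol, 932 several and 9160 none. The brightest probe set stood for a gene. Promoters are RefSeq's.

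Members and lists were chosen with earlier results of these data known. Named genes were the 4 largest differences past the threshold per list with no array at the floor (where under 2 passed, the 2 brightest members too), the most like genes, and 3 neighbours on each side.

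Arrays share the numbers 1 to 3 across regions. Deviations of same-numbered arrays correlated at 0.182, 0.186 and 0.101, which by the rule used pairs them. The reported fit has no block; the paired fit is an alternative, beside other scalings, floors, filters, variance models, probe set choices and leaving out each array. The number of arrays limits the precision.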

Additional observations from a re-analysis of the deposited data

How the results depend on the processing

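Fam107a was lower in cerebellar astrocytes under all 13 alternatives tried for it, and so was Fam107b. The log2 difference of Fam107a was -3.44 as the mean of its probe sets and -3.35 without suffix probe sets, and -4.24 to -3.70 when 1 array was left out. That of Fam107b was -0.51 with arrays scaled to the same median, -0.54 as the mean of probe sets, -0.84 without suffix probe sets, and -0.37 to -0.17 when 1 array was left out. With no filter on dim probe sets, 1281 probe sets were called in place of 2904, and 0 receptor, 2 actin, 3 radial glia and 1 heat shock genes in place of 1, 9, 10 and 3. Without the variance trend 1606 were called, with 0, 2 and 1 of the receptor, actin and heat shock genes, and with the mean of probe sets 0, 3 (3 higher, 0 lower) and 1. The values as deposited gave 1 heat shock call. Scaling to the same median moved the median log2 difference over all probe sets to -0.10, against 0.01, and split the calls into 821 higher and 2121 lower, against 1337 and 1567. With the replicate block that pairs arrays by number, heat shock calls became 5, actin calls 12, radial glia calls 13 and those over all probe sets 3380, and the block lost the call of Bcl6 (adjusted p = 0.0663) and gained that of Cfap20dc (0.0328), and changed the call of no other named gene. Leaving out 1 array gave 1218 to 2802 calls over all probe sets, 0 to 1 for receptors, 3 to 5 for glucocorticoid-induced, 2 to 10 for actin, 8 to 10 for radial glia and 1 to 2 for heat shock genes. Of the named or called genes past the threshold, those that turned direction were Myh10 (0.072 as the mean of probe sets) and, without suffix probe sets, Evl (0.062) and Rcn2 (0.53). Of named genes that did not pass, Suv39h2, Agmo, Fhit, Hspa14, Tmem29, Ncoa2, Nr3c1, Pdhb and Frmd4a also crossed 0. The causes were not tested. Signal near that of the bacterial controls limits the cerebellar values of the dimmest Fam107a probe set.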
